A study of Sus scrofa with 2 samples.

Results

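The features described here are 379 assembled transcript sequences (Unigenes) of pig ovary that had more reads at 90 days than at 30 days after birth, in a range of catalogue numbers where most compared features went in the opposite direction. They were chosen from the 88173 features of the catalogue by number, length, abundance and fold. The rule took Unigenes numbered 12191 to 73609 that were shorter than 5000 bases and had a mean of both pools below 50 CPM (counts per 1000000 reads of the library). It also asked for at least 1 CPM in either pool and for a log2 fold of at least 1, where log2 fold stands for the log2 of (90-day CPM + 1)/(30-day CPM + 1). The fold therefore chose the members, and it is given as a description without a test. The number range holds 45683 Unigenes, of which 39589 reached 1 CPM in a pool and were compared.

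The animals were crossbred gilts, young female pigs, of Landrace and Yorkshire parents, and 6 of them were kept under one feeding regime. RNA from the whole ovary of each animal of one age was mixed in equal parts, and 1 library was sequenced from each mix, with 9.38 M counted reads (M, 1000000) for the 30-day pool and 10.7 M for the 90-day pool. The sources used here do not give the number of animals per pool. With 1 library per age the spread between animals is not sampled, so no difference has a replicate check, and intervals (exact, 95%) cover counting error only. A changed cell makeup of the ovary and a changed RNA level per cell cannot be told apart in whole tissue.

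The pig ovary before puberty holds a store of resting follicles, from which follicles are recruited into growth while the surrounding stroma and vessels enlarge. Long non-coding RNAs, transcripts with little or no protein-coding capacity, are often expressed at low levels and in a tissue-restricted way, and many are spliced from separate exons. A Unigene is a sequence assembled from reads, and 1 RNA can be represented by several Unigenes when its coverage is broken. None of the 379 members has a gene symbol in the files, and 0 of the 88173 identifiers matched the name tables, so ovarian marker genes and coding status were not looked up.

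The members made up 0.968% of the 39161 compared features within the same limits of number, length and mean. Over the whole number range 1.01% of the compared features were at least 2-fold higher at 90 days and 63.8% at least 2-fold lower. Over all compared features of the catalogue 14.6% were higher, and within the same limits of length and mean 30.8% of the Unigenes with numbers above the range were higher. The rule used this contrast, so nothing is read from these shares.

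The members together had 19713 reads at 30 days and 72647 at 90 days, or 0.210% and 0.679% of the libraries. The summed CPM was thus 3.23 times as high at 90 days (3.18 to 3.28), as the choice of members requires. The other 39210 compared features of the range took 23.0% of the 30-day reads and 10.1% of the 90-day reads, which is a ratio of 0.440 (0.439 to 0.441). A member had between 0 and 258 reads at 30 days, with a median of 37, and between 12 and 832 at 90 days, with a median of 141. Per length, the median level was 4.51 RPKM (reads per kilobase of length and 1000000 reads) at 30 days and 14.6 RPKM at 90 days. For the other compared features of the range it was 3.78 RPKM at 30 days and 0.761 RPKM at 90 days. At 30 days the levels of members and of other features thus lay close together. The middle portions overlapped, from 3.06 to 6.65 RPKM for members and from 2.69 to 5.92 RPKM for the others (25th to 75th percentile). The minimum of 1 CPM in either pool enters this comparison. The others had a median of 0.654 CPM at 90 days, so most of them passed it only by their 30-day reads, while every member passed it at 90 days.

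**Figure D1:**
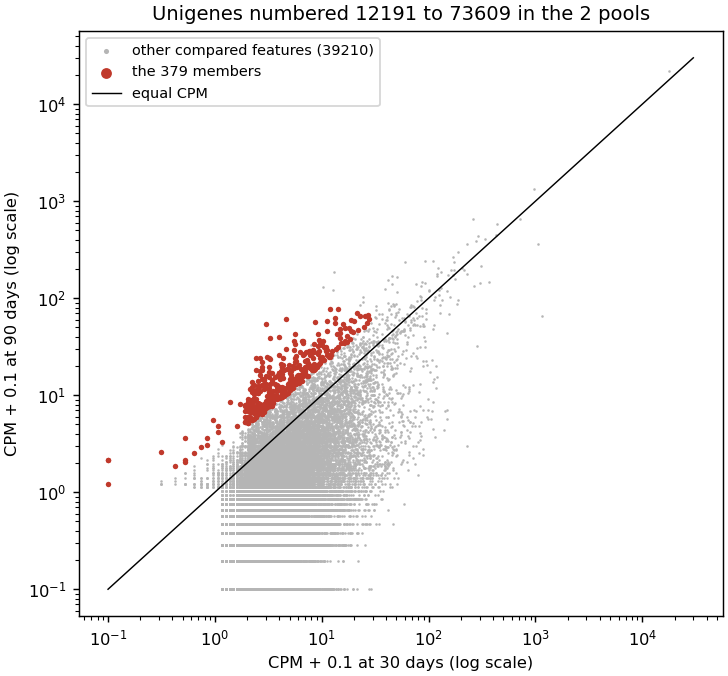
CPM at 30 days (x axis) and at 90 days (y axis), each plus 0.1 and on a log scale, of every compared Unigene numbered 12191 to 73609; each point is 1 feature, red for the 379 members and grey for the other 39210, and the line marks equal CPM. The members form a band above the line, and 3 of them sit at the left edge with no read at 30 days.

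Most members were modest in size of change. The log2 fold had a median of 1.34 and was below 1.5 in 230 members, at least 2 in 48, at least 3 in 4 and at least 4 in none. Plain CPM ratios, without the added 1 CPM, had counting intervals wholly at or above 2-fold in 199 members, and wholly above 1 in all 379. The rule chose the members on these same counts, so the intervals give no separate support for a rise. Few members were near the detection limit at 30 days. There were 334 with at least 20 reads at that age, 15 with fewer than 10 and 3 with none. The 3 members without a read at 30 days were 1260, 849 and 220 bases long and had 12, 22 and 22 reads at 90 days. With 3 reads put in place of the count of 0, their ratios were 3.50, 6.42 and 6.42. The counting intervals of their CPM ratios had lower ends of 2.43, 4.80 and 4.80. Another 2 members had 1 to 3 reads at 30 days. One, of 744 bases, went from 3 to 19 reads, a ratio of 5.55 (1.63 to 29.3). The other, of 2736 bases, went from 2 to 27 reads, a ratio of 11.8 (2.97 to 102.6).

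The members just inside the fold limit hardly differed from the features just outside it. The closest member (3095 bases) went from 160 to 377 reads, a log2 fold of 1.003, and the closest feature outside (743 bases) had 30 and 79 reads, a log2 fold of 0.997. At the limit of the mean, the member nearest to 50 CPM had a mean of 47.1 CPM, and the nearest feature beyond it 53.5 CPM. At the length limit the longest member had 3830 bases, and the 1 feature that missed the rule by length alone had 8058 bases. In all, 20 features of the range were at least 2-fold higher but missed the rule, 19 of them by a mean of 50 CPM or more and 3 by length, with 2 counted under both.

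The largest log2 fold belonged to Unigene71455_All, a short feature of 350 bases. It had 27 reads at 30 days and 583 at 90 days, or 8.23 and 155.6 RPKM. Its CPM was 18.9 times as high at 90 days (12.9 to 28.9), with a log2 fold of 3.84. Reads covered nearly all of it at both ages, 99.7% at 30 days and 99.1% at 90 days. Its nearest neighbours by number went the other way. The 4 compared features numbered just before it had 17 to 21 reads in the 30-day pool and none in the other. The next one after it, of 366 bases, had 37 and 17 reads. Slightly further off, a feature of 2168 bases had 10 and 12 reads. Of 50 compared features within 50 numbers on either side, 0 were higher and 27 lower, where 63.8% of the range were lower.

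The second largest log2 fold was that of Unigene62753_All, of 1566 bases. It had 42 reads at 30 days and 657 at 90 days, or 2.86 and 39.2 RPKM, a CPM ratio of 13.7 (10.02 to 19.2). Its covered length went from 88.8% to 99.9%. Unlike the short feature with the largest fold, it stood among neighbours that were also higher at 90 days, as described below for the run numbered 62747 to 62757.

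The members with the highest CPM at 90 days had smaller folds than these. The first was a feature of 2388 bases that went from 112 to 832 reads, a ratio of 6.51 (5.34 to 7.998). Next came a feature of 2048 bases with 131 and 822 reads, a ratio of 5.50 (4.57 to 6.66). Per length the order differed: the highest level at 90 days was 162.0 RPKM, in a feature of 430 bases with 198 and 746 reads and a level of 49.1 RPKM at 30 days. The highest level at 30 days was 59.2 RPKM, in a feature of 452 bases with 251 and 721 reads.

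In length the members had a median of 926 bases, from 202 to 3830, against 851 bases for the other compared features of the range. There were 61 members shorter than 500 bases, 149 from 500 to below 1000, 132 from 1000 to below 2000 and 37 of 2000 or more. Of the compared features within the limits, the share that were members was 0.817%, 0.888%, 1.12% and 1.2% in these length classes. By mean abundance the share was 0.0543% below 2 CPM, 0.455% at 2 to 5 CPM, 3.88% at 5 to 10 CPM, 8.16% at 10 to 20 CPM and 11.1% at 20 to 50 CPM. The added 1 CPM holds back the log2 fold of low features, so the rule itself enters this gradient.

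The members were not spread evenly along the Unigene numbers. The order within the range was not used by the rule. Across 62 windows of 1000 numbers, each with 412 to 843 compared features, the median window held 4 members and 6 windows held none. The windows 44000 to 44999 and 45000 to 45999 held 54 and 35 members, so that 89 of the 379 fell in them, and the next fullest window, 16000 to 16999, held 19. The median step from one member to the next was 9.5 numbers, where even spacing would give 162. What neighbouring numbers have in common in the genome or in the assembly is stated in none of the sources used here.

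**Figure D2:**
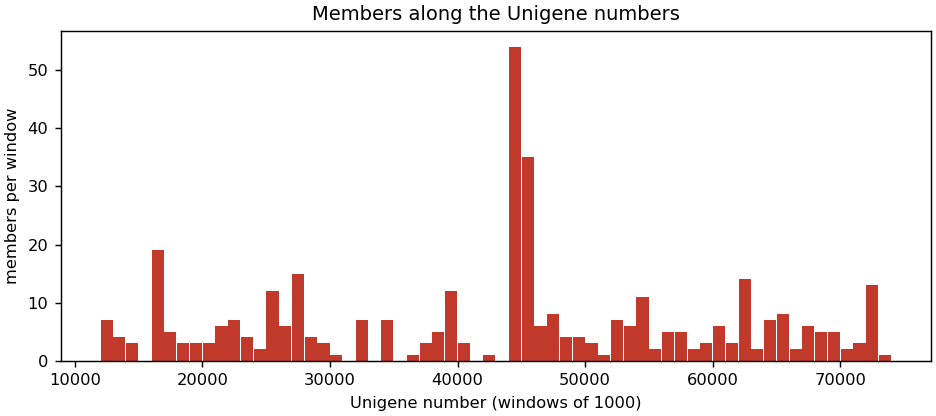
Number of members (y axis) in each window of 1000 Unigene numbers (x axis) from 12000 to 73999. The windows that start at 44000 and 45000 stand out with 54 and 35 members, and the median window holds 4.

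In number order, 117 of the 379 members (30.9%) were followed directly by another member, while members are 0.957% of all compared features of the range. Taking both sides, 234 of 758 adjacent places (30.9%) were held by members. The share was 23.0% at 5 places, 12.4% at 20 places, 4.26% at 50 places and 1.07% at 100 places, where it had come down to the level of the range. Features at least 2-fold lower at 90 days were scarcer beside a member, at 20.1% of adjacent places, 43.9% at 20 places and 62.1% at 100 places, against 63.8% in the range. Adjacent features that were no members themselves had a median log2 fold of -0.26, against -1.28 for all compared features of the range that were no members. Without the 101 members of the 3 longest runs, 17.6% of the remaining members were followed by a member.

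**Figure D3:**
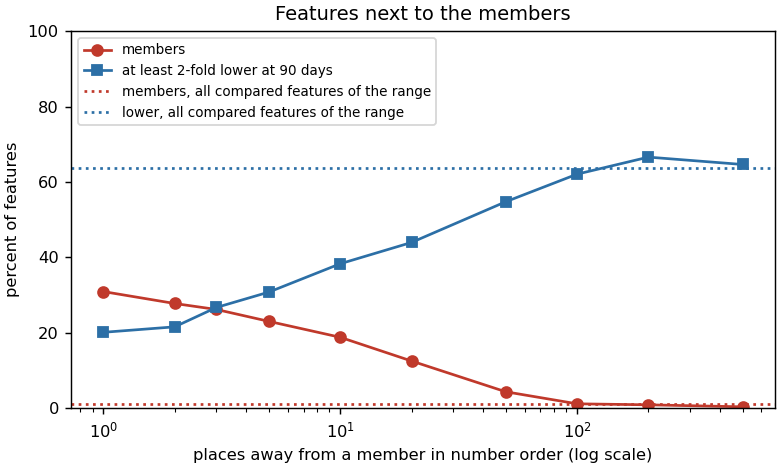
Percent of features (y axis) that are members (red circles) or at least 2-fold lower at 90 days (blue squares), by the number of places from a member in number order on either side (x axis, log scale); dotted lines give the same shares over all compared features of the range. The share of members comes down from 30.9% at 1 place to 1.07% at 100 places.

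Other classes of features also lay beside their like, from higher starting shares. A lower feature of the range was followed by another lower one in 75.1% of cases, where 63.8% of all were lower. Of the 10247 Unigenes with numbers above the range that met the same limits of length, CPM and fold, 48.0% were followed by another such feature, where 30.3% of the compared features there were of this kind. These shares describe 1 pair of libraries, and their difference from the share among the members was not tested.

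Members were chained into runs when the step to the next member was at most 20 numbers, a distance set after the values were seen. This gave 18 runs of 4 or more with 184 members, 35 runs of 2 or 3 with 79 members, and 116 members alone. In the spans of the 18 longer runs lay 155 compared features that were no members. By the 2-fold limits 6 of them were higher, 13 lower and 136 between, with a median log2 fold of 0.56. Within 50 numbers outside these runs lay 976 compared features, of which 7 were higher and 490 lower. Over all compared features of the range 1.01% were higher and 63.8% lower, so the flanks held no excess of lower features. By the way runs were chained, no member can lie within 20 numbers of a run's ends, and this holds for the flanks of each run below. At 21 to 50 numbers, where members can occur, 7 of 597 compared features were members and 330 (55.3%) were lower. Within 20 numbers 42.2% were lower. Of the 20 higher features left out by the limits of mean or length, 11 lay within 20 numbers of a member. The same share over all compared features of the range is not given, so nothing is read from this count. The SD of the log2 fold was 0.37 within the longer runs and 0.48 over all of their members.

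The longest run, numbered 44005 to 44096, held 49 members among 70 compared features. Its members were 227 to 2783 bases long and 48208 bases in sum, with 2411 reads at 30 days and 9639 at 90 days, a CPM ratio of 3.50 (3.35 to 3.66). A member had 14 to 139 reads at 30 days (median 39) and 51 to 601 at 90 days (median 158). The level was 2.63 to 13.2 RPKM at 30 days and 11.0 to 41.8 RPKM at 90 days, with medians of 5.26 and 17.8. Across the members of the run, the levels of both ages overlapped between 11.0 and 13.2 RPKM. Of the 21 other features in the span, 3 were higher and 1 was lower, with a median log2 fold of 0.83. Within 50 numbers on either side none of 64 compared features was higher and 40 were lower, with a median log2 fold of -1.23.

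The run numbered 45831 to 45912 held 34 members, 365 to 2906 bases long, among 50 compared features. The members went from 1197 to 6281 reads, a ratio of 4.60 (4.32 to 4.89), and 16 of the 48 members with a log2 fold of at least 2 were among them. A member had 18 to 176 reads at 30 days and 54 to 644 at 90 days, and the median level went from 3.19 to 14.9 RPKM. Of the 16 others in the span 8 were lower, and they lay together between the second-to-last and the last member, as the plot of log2 folds along 4 runs shows. The run therefore ends in effect before those features, and its last member, of 645 bases with 21 and 80 reads, stands apart. Of 37 compared features within 50 numbers on either side none was higher and 15 were lower, with a median log2 fold of -0.77.

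The third longest run, numbered 16363 to 16402, held 18 members of 240 to 1741 bases among 30 compared features. They went from 848 to 3261 reads, a ratio of 3.37 (3.12 to 3.64). The median level was 7.83 RPKM at 30 days and 27.1 RPKM at 90 days, above those of both longer runs. Of the 12 others in the span 1 was lower and 11 lay between, and of 68 compared features within 50 numbers on either side none was higher and 44 were lower.

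The run numbered 62747 to 62757 was short but had the largest ratio of the 18 longer runs. All 11 compared features in it were at least 2-fold higher at 90 days, 9 of them members and 2 left out by the limit of 50 CPM on the mean. The members went from 253 to 2509 reads, a ratio of 8.69 (7.63 to 9.92), where the 18 runs went from 2.22 to 8.69. A member had 17 to 52 reads at 30 days and 84 to 657 at 90 days. Per length the members lay between 2.86 and 6.32 RPKM at 30 days and between 12.2 and 59.3 RPKM at 90 days. The rule chose these features for being higher at 90 days, so nothing is read from this separation or from their intervals. All 9 had an interval of the CPM ratio wholly above 2-fold, and 5 of the 10 largest log2 folds of all members were in this run. The 2 features left out were 2096 bases long, with 119 and 1309 reads, a ratio of 9.63 (7.98 to 11.7), and 2465 bases long, with 120 and 1977 reads, a ratio of 14.4 (12.0 to 17.5). Of 58 compared features within 50 numbers on either side, 1 was higher and 40 were lower, with a median log2 fold of -1.55.

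**Figure D4:**
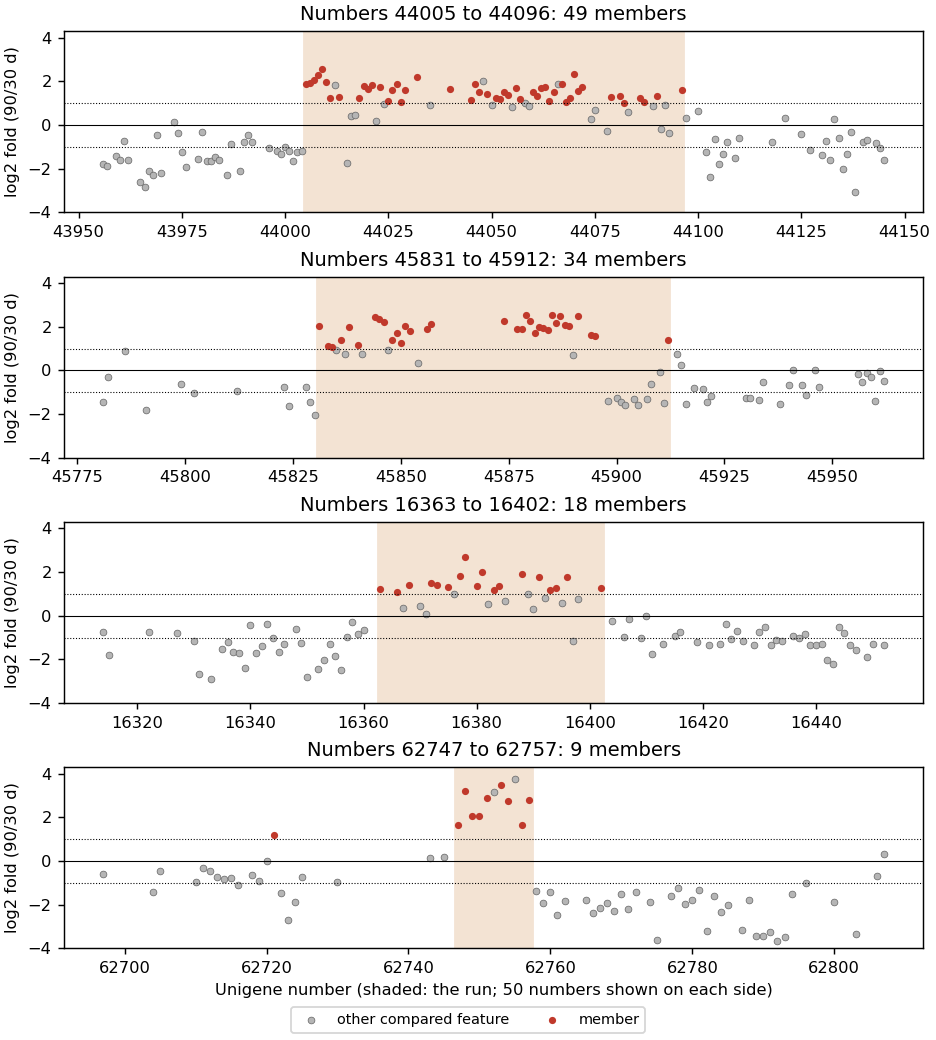
Log2 of (90-day CPM + 1)/(30-day CPM + 1) (y axis) of every compared feature in 4 runs and in the 50 numbers on each side, by Unigene number (x axis); red points are members, grey points are other features, the shading marks the run, and dotted lines mark 2-fold. Within 50 numbers outside the runs 44005 to 44096, 45831 to 45912 and 16363 to 16402 no feature was at least 2-fold higher, and outside the run 62747 to 62757 there was 1; within 20 numbers of a run's ends the chaining allows no member.

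The other longer runs had lower ratios than the run numbered 62747 to 62757, but not all were below those of the 3 longest. The run 32701 to 32708, with 4 members, had a ratio of 4.20 (3.32 to 5.38). The run numbered 72505 to 72523 held 9 members of 438 to 3772 bases that went from 980 to 2755 reads, a ratio of 2.46 (2.29 to 2.65). Its 9 other compared features all lay between the limits, with log2 folds from 0.07 to 0.92. The run 65468 to 65491, with 8 members, included the longest member, of 3830 bases with 182 and 473 reads, and had a ratio of 2.39 (2.16 to 2.64). The run 27045 to 27085 had 7 members among 36 compared features, with a ratio of 2.43 (2.19 to 2.69). Its 29 other features included none past the limits in either direction and had a median log2 fold of 0.70, from -0.09 to 0.97, so that the members were the upper part of this stretch. Of 61 compared features within 50 numbers on either side, 3 were higher and 10 lower, with a median log2 fold of 0.11. The 4 compared features numbered 64538 to 64541 were all members, with 321 and 1112 reads and a ratio of 3.03 (2.68 to 3.45), and so were the 4 numbered 52941 to 52944, with 111 and 342 reads and a ratio of 2.70 (2.17 to 3.37).

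Members in runs and members alone had similar read numbers. The median was 36.5 reads at 30 days and 154 at 90 days in runs of 4 or more, and 35 and 126.5 for the 116 alone. The median log2 fold was 1.42 in the longer runs, 1.26 in runs of 2 or 3 and 1.30 for those alone. Of the 48 members with a log2 fold of at least 2, 30 were in runs of 4 or more and 10 were alone.

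The covered length, which the rule did not use but which follows the read number, was high at both ages. The median covered share of a member was 92.6% at 30 days and 97.3% at 90 days, and 234 members were covered over at least 90% at both. With 90-base reads (the covered length of every feature with 1 read) placed at random, a given read number predicts a covered share. The members lay a median of 2.90 points below it at 30 days and 2.62 points below it at 90 days. Members with 20 to under 50 reads at 30 days (198, median length 793 bases) were covered over a median of 90.9%. The other compared features of the range under 5000 bases with such read numbers (21514, median length 824 bases) were covered over 90.8%. The higher-numbered Unigenes that met the same limits (793 in this window, median length 1916 bases) were covered over 58.0%. Against random placement these were 3.17, 3.12 and 13.0 points short, and 2.53%, 7.68% and 22.3% of them were at least 20 points short. With 10 to under 20 reads, 30 members were a median of 1.68 points short and 8232 other features of their range 5.97. The higher-numbered Unigenes in the window of 20 to under 50 reads were also the longest of the 3 groups.

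At 90 days the order depended on the read number. With 100 to under 200 reads, 138 members were a median of 2.43 points short of random placement, 626 other features of their range 4.41 and 582 of the higher-numbered Unigenes that met the same limits 4.50. Features at least 20 points short made up 2.90%, 10.7% and 17.5% of these groups. Their median lengths were 866, 1238.5 and 2053.5 bases, so the members had the most reads per length, which a window of read number does not hold equal. With 50 to under 100 reads the median shortfalls were 4.43, 7.44 and 4.85 points, in 100, 1510 and 1898 features. Median lengths there were 694, 1021.5 and 1291 bases. With 20 to under 50 reads the members were the furthest short, by a median of 38.0 points in 12 members, against 13.1 in 5471 and 5.26 in 5995 features. In length these groups had medians of 606.5, 1033 and 761 bases. In that window 8 of the 12 members were at least 20 points short, against 27.4% and 15.7% of the other groups. Features are no replicates of an age, and these differences were not tested.

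In 26 members (6.86%) the reads at 90 days were crowded into part of the length. These were at least 20 points short of random placement, and 10 of the 26 were so at 30 days too. Other features showed this as well. With 50 to under 100 reads at 90 days, 6% of members, 16.9% of other features of the range and 16.3% of the higher-numbered Unigenes were that far short. With 200 to under 500 reads the shares were 4.76%, 5.52% and 9.32%, at median lengths of 1352, 1865 and 2726 bases. Only with 20 to under 50 reads was the share of members larger. Of the 26, 18 were among the 116 members alone and 3 among the 184 in runs of 4 or more. Between the ages the covered share became smaller in 16 of the 26 and larger in 9. As examples of the former, a member of 491 bases had 95 reads over 70.3% of its length at 30 days and 385 reads over 40.7% at 90 days. One of 745 bases had 30 reads over 54.5% and 114 reads over 40.4%. One of 1516 bases had 7 reads over 28.7% and 38 reads over 24.0%, where random placement of the latter would cover 89.5%.

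More generally, 86 of the 379 members were covered over less of their length at 90 days than at 30 days although each had more reads. Of these, 20 lost at least 5 points and 9 at least 10. The same counts are not given for other features, so they are not read as particular to the members. The member of 452 bases that had the highest level per length at 30 days was covered over 96.5% with 251 reads then and over 70.6% with 721 reads at 90 days. A member of 266 bases, in the run 27045 to 27085, had 72 reads over 99.3% and 202 reads over 78.2%. In 144 members the covered length was at least 5 points larger at 90 days. At the other extreme, Unigene62753_All was the closest to random placement at 90 days, 0.06 points short with 657 reads.

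**Figure D5:**
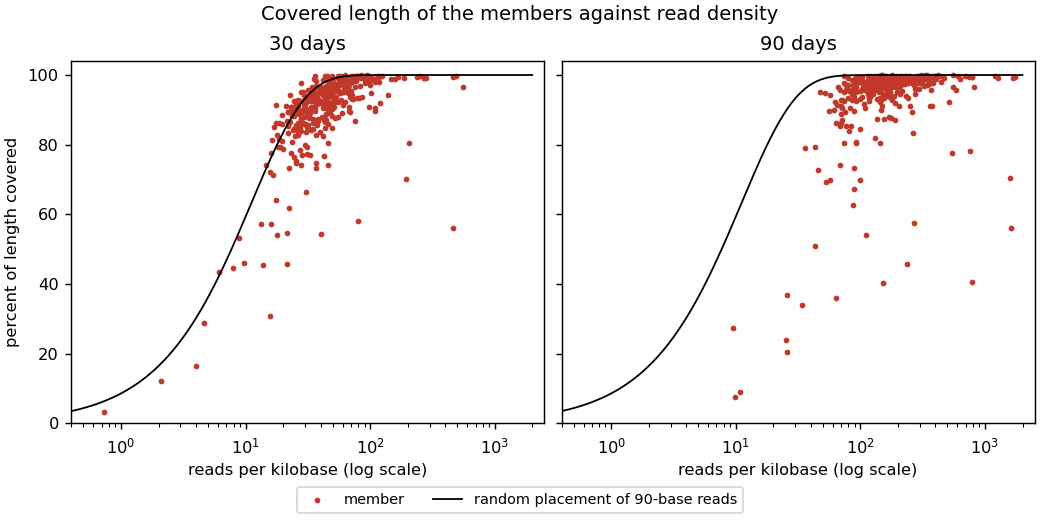
Percent of the length covered by reads (y axis) against reads per kilobase of length (x axis, log scale) at 30 days (left) and 90 days (right); each point is 1 member with a read at that age, and the line is the share expected for 90-base reads placed at random. Most members lie near the line or the ceiling, while 26 at 90 days lie at least 20 points below it.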

How the data were processed

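Per the labels' protocols, ovary RNA of the gilts of one age was pooled and 1 Illumina library was made per pool. Per the file headers, the authors deposited whole-number counts of uniquely assigned reads, the length, the percent of it covered, and RPKM per feature. The deposited counts summed to the header totals, and the deposited RPKM equalled reads per kilobase and per 1000000 of that total in every row (relative tolerance 1e-06). Per the submitters' processing notes, TopHat, Cufflinks and build Sscrofa10.2 were used, with no roles named. None of the sources used here gives the counter, annotation or strand, so reads shared by overlapping or near-identical features could not be assessed.

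Absence from a table was taken as 0 reads. CPM used the header totals, and 1 read was worth 0.107 CPM at 30 days and 0.0934 at 90 days. No test between ages exists with 1 library each. Ratio intervals come from the exact (Clopper-Pearson) 95% interval of the 90-day share of reads. Random placement predicts a covered share of 1 minus exp(-reads × 90/length). Identifiers are printed for the 2 largest folds, and other features are given by length: the largest folds, CPM, lengths and the extremes of covered length, plus those at each limit. The features next to the largest fold, those that lost covered length, those with 3 or fewer reads and the runs were picked after their values were seen. The members and lists were chosen with earlier results of these data known. Python 3.11.15, scipy 1.17.1 and edgeR 4.0.16 (scaling factors only) were used, and the calculations were tested on simulated data.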

Additional observations from a re-analysis of the deposited data

How the results depend on the processing

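No paired analysis was possible because there is 1 library per age, so none could be left out either. The 5 other scalings raise every log2 ratio and a smaller pseudocount enlarges every fold, so by construction none of the 379 members could drop below 2-fold under them, and this is no sign of stability. At a 4-fold threshold 48 were left, and 199 had an interval wholly at or above 2-fold. Applied anew, the rule gave 674 features with TMM scaling, 703 with median-of-ratios scaling, 753 with upper-quartile scaling, 1032 when the 4 most abundant features were left out of the total and 48 at 4-fold, against 379. The first 4 of these settings raise each log2 ratio by 0.39, 0.41, 0.46 and 0.53 by construction. The share of compared features of the range at least 2-fold higher was 1.01%, and 1.83%, 1.91%, 2.06% and 2.91% with these scalings. Centring the median log2 ratio on 0 gave 1.32%. The shares and counts of lower features and the summed ratio of the other features are given with the header totals only. They depend on the scaling too. The share was 1.35% and 1.41% with a pseudocount of 0.1 and 0.01 CPM, 0.131% at 4-fold, 3.56% with a minimum of 5 CPM and 0.873% without a minimum.

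The alternatives for runs and neighbours were chosen after seeing the data. The share of members followed by a member was 30.9%. It moved to 25.5% with the top 4 left out of the total, 39.9% with a minimum of 5 CPM (fewer features between members) and 17.6% without the members of the 3 longest runs. Under the other settings it lay between 29.3% and 34.5%. Runs of 4 or more held 184 members, and 328 with TMM, 347 with median-of-ratios and 370 with upper-quartile factors, 485 with the top 4 left out of the total and 23 at 4-fold, as the number of members itself moved. With a step of 5, 10 or 50 numbers they held 153, 169 and 210. With reads 10 bases longer, the median difference from random placement at 90 days was -2.65 points, against -2.62. Depth limits the 15 members with fewer than 10 reads at 30 days most.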
